A study of Mus musculus with 12 samples.

Results

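The circadian clock genes of these arrays were Per1, Per2, Per3, Arntl (also written Bmal1), Clock, Nr1d1, Nr1d2, Dbp, Tef and Bhlhe40. They were chosen by name, as all probe sets to which the platform annotation gives one of these 10 symbols, and not by any measured value. This gave 25 probe sets of the 45037 on the array that are no controls, for 10 of the 18194 genes with a probe set of a single symbol. Of the 25, 21 lay above a filter on low signal and were tested, and 4 lay under it.

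The arrays were Affymetrix mouse expression chips of prefrontal cortex, a dissection that by the paper takes in adjacent motor cortex, from male mice. Their age is labelled 12 weeks, which by the Methods is the age at which they were obtained, before a period of habituation. The 4 groups were Fyn-null mice given ethanol, control mice given ethanol, Fyn-null mice given saline and control mice given saline, with 3 arrays each. Fyn-null mice were of the stock B6;129S7-Fyntm1Sor/J, which lacks the tyrosine kinase Fyn in every cell, and control mice were B6129SF2/J. The control stock is not a litter-mate line, so genotype and stock cannot be told apart. All mice had 3 days of saline injections, then 1 intraperitoneal injection of ethanol at 3 g/kg or of saline, and tissue was taken 4 hours later. Each array held RNA pooled from 3 mice, so the spread between arrays is that between pools. The mice were kept on a light and dark cycle, but the hour of injection was not stated.

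The clock is a feedback loop of transcription. CLOCK and ARNTL bind E-boxes and switch on the Per and Cry genes, whose proteins then repress CLOCK and ARNTL. Nr1d1 and Nr1d2 encode the repressors REV-ERB alpha and beta, which act on Arntl through ROR elements (ROREs), and Dbp and Tef encode activators that bind D-boxes, Per3 being one of their known targets. The loop runs in cortex as well as in the pacemaker of the hypothalamus, so levels of these messages change over the day, and Per1 and Per2 also respond to glucocorticoids.

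All values are log2 RMA values, and a difference of 1 on this scale is a doubling. In bulk tissue a lower level in every cell and fewer cells that express a gene cannot be told apart. Array medians lay between 5.4 and 5.48. Fyn, the targeted gene, was at 8.75 to 9.01 in Fyn-null ethanol pools and at 9.33 to 9.70 in control ethanol pools. In saline pools 2 libraries went against their labels. The library labelled Fyn-null saline replicate 4 was at 9.45, beside 8.89 and 8.64 for replicates 2 and 3, and the library labelled control saline replicate 2 was at 8.74, beside 9.31 and 9.65 for replicates 1 and 3. These are called the doubted saline pools, and the called genes among the 10 are given with and without both. Where the deleted part of Fyn lies relative to these probes was not determined.

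RNA quality differed with treatment. The difference between 3′ and 5′ control probe sets of Gapdh and Actb, which is larger in more degraded RNA, averaged 0.463 (0.39 to 0.63) in ethanol pools and 0.77 (0.54 to 0.99) in saline pools (exact permutation test, two-sided, p = 0.00433, adjusted p = 0.026 over 18 tests, n = 6 pools each). Endothelial markers averaged 6.60 (6.37 to 6.80) in ethanol pools and 7.10 (6.97 to 7.24) in saline pools (p = 0.00216, adjusted p = 0.026, same exact permutation test), with 5 of the 6 measured of 7 listed called lower, as 4.80% of all genes were. Of 4 erythrocyte markers only Alas2 was measured, at 6.23 in ethanol pools and 6.60 in saline pools (exact permutation p = 0.00866, adjusted p = 0.039). Cortical neuron markers, 10 of 11 measured, were at 10.23 to 10.57 in ethanol pools and 10.36 to 10.58 in saline pools, and their mean was 0.158 lower in Fyn-null than in control pools (exact permutation p = 0.00433, adjusted p = 0.026). Their part in the results below was not tested. The 3′–5′ difference was added to the fit as a covariate after the data were seen. It went with treatment, with little overlap between ethanol and saline pools, so that fit cannot tell ethanol from RNA quality.

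At 4 hours after ethanol, the clock genes had moved in both directions. Over both genotypes, 6 of the 21 tested probe sets passed (limma, Benjamini-Hochberg adjusted p under 0.05), each of a different gene, where 6.81% of all probe sets tested passed. Per3, Nr1d2, Dbp and Tef each had 1 probe set that rose, against 2.58% of all probe sets, and Per2 and Arntl each had 1 that fell, against 4.22%. Counted by gene, 6 of 10 had at least 1 call, where 10.4% of all genes did. The median of the 21 differences was 0.095, with 13 above 0 and 8 below, and that of all probe sets was -0.021. Ethanol and saline pools did not overlap for 2 of the 21, as for 3.9% of all probe sets. Both were lower after ethanol (2.58% of all), and 0 were higher (1.32% of all). Averaged over all measured probe sets of a gene, 4 genes passed: Per2 at -0.53 (SE 0.097, adjusted p = 0.00414), Per3 at 0.30 (SE 0.091, adjusted p = 0.0492), Nr1d2 at 0.29 (SE 0.080, adjusted p = 0.0311) and Tef at 0.52 (SE 0.099, adjusted p = 0.00499). The share of all genes that passed in this fit is not given, so these 4 cannot be set against a rate over all genes. Each of these means combines 1 called probe set with at least 1 that did not pass. For Nr1d2 and Tef the brighter probe set was at 0.06 and 0.11.

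**Figure D1:**
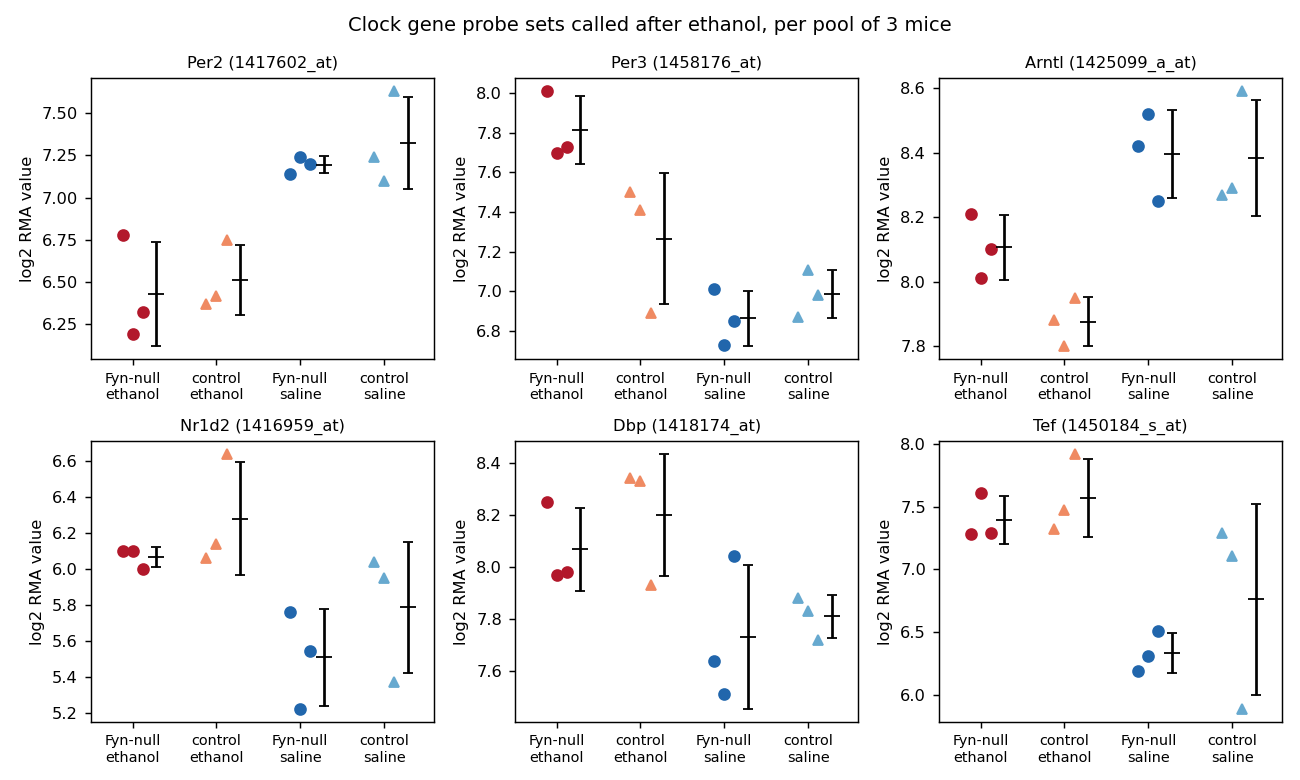
Log2 RMA value (vertical axes, which do not start at 0) of the 6 called probe sets in each pool of 3 mice, with the groups along the horizontal axis. Points are pools and black bars are mean ± SD (n = 3). Per2 and Arntl sit lower in every ethanol pool than in every saline pool, and the saline pools of Tef spread from 5.89 to 7.29.

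The period genes encode repressors of the loop, and Per2 is the one whose called probe set fell. This probe set, 1417602_at, read 6.78, 6.19 and 6.32 in Fyn-null ethanol pools and 6.37, 6.42 and 6.75 in control ethanol pools. In saline pools it read 7.14, 7.24 and 7.20 (Fyn-null) and 7.24, 7.10 and 7.63 (control). Every ethanol pool was below every saline pool. The difference was -0.79 (SE 0.11, adjusted p = 0.00194, limma, n = 6 pools each), or 0.58-fold of the saline level. Fyn-null mice, at -0.76 (SE 0.17, adjusted p = 0.0765), and control mice, at -0.81 (SE 0.17, adjusted p = 0.0374), had close values, and the difference between these responses was 0.05 (SE 0.23). The call in control mice was lost without both doubted saline pools (-0.92, adjusted p = 0.0551) and in 11 of 21 alternatives in all. Without those pools the response over both genotypes was -0.84 (adjusted p = 0.00568), but with the 3′–5′ difference as a covariate it was -0.36 (SE 0.13, adjusted p = 0.421).

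Per2 had another tested probe set, 1457350_at, which was at 6.19 to 6.69 in ethanol pools and 6.26 to 7.11 in saline pools. It did not pass (-0.27, SE 0.14, adjusted p = 0.247, limma), although without Fyn-null saline replicate 2, its lowest saline pool, it was -0.41 (adjusted p = 0.0252). The third, 1417603_at, lay under the filter, at 4.73 to 5.19 in ethanol pools and 5.00 to 5.39 in saline pools.

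Per3 went the other way. This period gene is dispensable for the basic rhythm in mice. Probe set 1458176_at read 8.01, 7.70 and 7.73 in Fyn-null ethanol pools and 7.50, 7.41 and 6.89 in control ethanol pools, against 7.01, 6.73 and 6.85 in Fyn-null saline pools and 6.87, 7.11 and 6.98 in control saline pools. All 3 Fyn-null ethanol pools stood above all other pools, while control ethanol replicate 4 was within the saline range. Over both genotypes it rose by 0.61 (SE 0.14, adjusted p = 0.021, limma), or 1.53-fold, and this size was the same, 0.61 (SE 0.24, adjusted p = 0.488), with the 3′–5′ covariate, though it no longer passed. It also missed the threshold without Fyn-null ethanol replicate 2 (0.60, adjusted p = 0.054), and without both doubted pools it was 0.64 (adjusted p = 0.0318).

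The other 3 tested probe sets of Per3 were also above 0 without passing. Probe set 1442243_at was closest, at 5.92 to 6.38 in ethanol pools and 5.64 to 6.07 in saline pools (0.25, SE 0.070, adjusted p = 0.0505, limma), and it passed after further quantile normalization (0.24, adjusted p = 0.0494). Probe set 1441445_at was at 0.25 (SE 0.15, adjusted p = 0.33) and 1421087_at at 0.09 (SE 0.11, adjusted p = 0.645). Under the filter lay 1421086_at, between 3.61 and 4.09 over all pools, and 1460662_at, between 3.84 and 4.41.

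The promoter of Per3 is shown because Per3 was the clock gene whose ethanol response passed in Fyn-null mice. Within this RefSeq window (GRCm38.p6, chr4:151044616-151044915, minus strand, 250 bases before to 50 after the annotated start), the capitals mark 2 matches to the D-box letters TTATGNAA, searched on both strands:
Per3: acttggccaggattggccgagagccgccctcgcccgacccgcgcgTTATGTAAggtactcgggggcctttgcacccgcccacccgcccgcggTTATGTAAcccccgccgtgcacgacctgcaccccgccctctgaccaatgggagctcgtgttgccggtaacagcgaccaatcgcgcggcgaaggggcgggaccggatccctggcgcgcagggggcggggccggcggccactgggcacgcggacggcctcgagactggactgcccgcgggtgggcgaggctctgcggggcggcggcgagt
They lie at -205 to -198 and -158 to -151, with the start base counted as 0. Of the 32851 windows of this length for all genes, 3.38% hold such a match. A match is a description of the letters and says nothing of binding here.

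Per1, a period gene known for rapid induction by light and hormones, did not pass. Its single probe set, 1449851_at, read 7.88, 7.64 and 7.79 in Fyn-null ethanol pools and 7.59, 7.93 and 7.83 in control ethanol pools. In Fyn-null saline pools it read 7.84, 8.30 and 8.01, and in control saline pools 7.66, 7.91 and 8.16. The groups overlapped, the difference was -0.20 (SE 0.10, 95% interval -0.42 to 0.02, adjusted p = 0.24, limma), and with the 3′–5′ covariate its sign turned to 0.15 (SE 0.13, adjusted p = 0.813). Other genes known to be induced by glucocorticoids moved up in the same pools: by the probe set of highest mean, 10 of the 12 listed rose and 0 fell (1.89% and 4.80% of all genes), with a median of 0.57. Fkbp5 and Tsc22d3 were at 1.36 each and Sgk1 at 1.03.

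The first Per1 window (chr11:69098699-69098998, plus strand, GRCm38.p6) is given for comparison with Per3, since it holds a D-box too. Capitals mark the E-box letters CACGTG at -166 to -161 and the D-box match at -24 to -17:
Per1: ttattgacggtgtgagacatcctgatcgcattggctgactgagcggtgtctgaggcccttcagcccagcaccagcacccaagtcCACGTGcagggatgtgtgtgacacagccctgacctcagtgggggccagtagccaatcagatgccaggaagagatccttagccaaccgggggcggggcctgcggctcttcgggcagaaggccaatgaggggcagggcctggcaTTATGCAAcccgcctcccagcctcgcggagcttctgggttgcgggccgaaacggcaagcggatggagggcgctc
A second Per1 window held the CRE core TGACGT at -132 to -127. The E-box letters occur in 7.15% of all windows and the CRE core in 7.51%.

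Of the activators of the loop, Arntl moved and Clock did not pass. Arntl 1425099_a_at read 8.21, 8.01 and 8.10 in Fyn-null ethanol pools and 7.88, 7.80 and 7.95 in control ethanol pools, against 8.42, 8.52 and 8.25 in Fyn-null saline pools and 8.27, 8.29 and 8.59 in control saline pools. Every ethanol pool was below every saline pool. The fall was by 0.40 (SE 0.078, adjusted p = 0.0112, limma), or to 0.759-fold, and without both doubted pools the difference was -0.46 (adjusted p = 0.0121). With the 3′–5′ covariate it was -0.19 (SE 0.11, adjusted p = 0.694). The response passed in control mice (-0.51, SE 0.11, adjusted p = 0.0389) and not in Fyn-null mice (-0.29, SE 0.11, adjusted p = 0.309), and their difference did not pass (0.22, SE 0.15, adjusted p = 0.992). The call in control mice was lost without both doubted pools (-0.56, adjusted p = 0.0575), without a filter (adjusted p = 0.0563) and in 14 of 21 alternatives in all.

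The other Arntl probe set disagreed. Probe set 1457740_at, dim and close to the filter, was at 0.19 over both genotypes (SE 0.13, adjusted p = 0.371, limma). When both probe sets were averaged, Arntl was at -0.10 (SE 0.073, adjusted p = 0.418), so its fall rests on 1425099_a_at alone.

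Of the Arntl windows, one held a match to the RORE letters TAGGTCA, which 2.61% of all windows hold. That window (chr7:113207261-113207560, plus strand, GRCm38.p6) is shown because Nr1d1 and Nr1d2 are known to act on Arntl through such elements, with the match in capitals at 30 to 36 after the start:
Arntl: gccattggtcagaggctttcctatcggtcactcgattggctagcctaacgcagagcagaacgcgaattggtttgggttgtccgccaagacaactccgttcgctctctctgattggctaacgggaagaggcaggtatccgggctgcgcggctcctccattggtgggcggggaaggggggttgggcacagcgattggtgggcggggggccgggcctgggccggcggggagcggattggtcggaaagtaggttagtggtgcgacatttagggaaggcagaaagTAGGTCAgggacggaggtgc

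Clock, the partner of ARNTL, had 4 tested probe sets, with differences of -0.15 to 0.05 and adjusted p-values of 0.187 to 0.987 (limma). The narrowest 95% interval, that of 1435775_at, was -0.11 to 0.10, and the widest, that of 1418659_at, was -0.25 to 0.20. Probe set 1435775_at was at 8.19 to 8.35 in ethanol pools and 8.17 to 8.38 in saline pools. The lowest p-value belonged to 1418660_at, at -0.15 (SE 0.068, adjusted p = 0.187), whose sign turned to 0.05 with the 3′–5′ covariate.

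Of the repressors of Arntl, Nr1d2 had a probe set that rose. Probe set 1416959_at read 6.10, 6.10 and 6.00 in Fyn-null ethanol pools, 6.06, 6.14 and 6.64 in control ethanol pools, 5.76, 5.22 and 5.54 in Fyn-null saline pools and 6.04, 5.95 and 5.37 in control saline pools. Control saline replicate 1 was within the ethanol range. The rise was 0.53 (SE 0.13, adjusted p = 0.0321, limma), or 1.44-fold, and it missed the threshold without both doubted pools (0.57, adjusted p = 0.0503). The covariate left 0.19 (SE 0.20, adjusted p = 0.862). The brighter probe set, 1416958_at, was at 10.31 to 10.64 in ethanol pools and 10.25 to 10.49 in saline pools, and its difference was 0.06 (SE 0.064, 95% interval -0.08 to 0.20, adjusted p = 0.592), an interval that does not reach 0.53. Nr1d1, by its single probe set 1426464_at, was at 6.82 to 7.22 in ethanol pools and 6.44 to 7.12 in saline pools (0.16, SE 0.099, adjusted p = 0.363). The Nr1d2 call was also lost without any one of 6 pools, namely each Fyn-null ethanol pool, control ethanol replicate 4, Fyn-null saline replicate 3 and control saline replicate 3, where adjusted p was 0.0533 to 0.0749.

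Dbp and Tef, the D-box activators and outputs of the clock, each had a called probe set that was higher after ethanol. Dbp 1418174_at read 8.25, 7.97 and 7.98 in Fyn-null ethanol pools and 8.34, 8.33 and 7.93 in control ethanol pools, against 7.64, 7.51 and 8.04 in Fyn-null saline pools and 7.88, 7.83 and 7.72 in control saline pools. The highest saline pool was the doubted Fyn-null saline replicate 4, which stood within the ethanol range. The rise was 0.36 (SE 0.10, adjusted p = 0.0459, limma), or 1.29-fold, and without both doubted pools it was 0.44 (adjusted p = 0.0263). With the 3′–5′ covariate the size stayed near, at 0.34 (SE 0.18, adjusted p = 0.621). This call was the closest to the threshold: it was lost without any one of 10 of the 12 pools, with adjusted p of 0.0646 to 0.10. The other Dbp probe set, 1438211_s_at, was at 0.41 (SE 0.17, adjusted p = 0.161), with 8.64 to 9.57 in ethanol pools and 8.25 to 9.13 in saline pools.

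Tef was called at probe set 1450184_s_at. It read 7.28, 7.61 and 7.29 in Fyn-null ethanol pools and 7.32, 7.47 and 7.92 in control ethanol pools, while Fyn-null saline pools read 6.19, 6.31 and 6.51 and control saline pools 7.29, 7.11 and 5.89. The Fyn-null saline pools and control saline replicate 3 were low. Control saline replicate 1 was within the ethanol range, and control saline replicate 2 lay below that range but near it. The rise was 0.93 (SE 0.20, adjusted p = 0.0177, limma), or 1.90-fold. Without both doubted pools it was 1.06 (adjusted p = 0.0227), without Fyn-null ethanol replicate 2 it was 0.87 (adjusted p = 0.0513), and with the 3′–5′ covariate 0.19 (SE 0.24, adjusted p = 0.894). The brighter Tef probe set, 1424175_at, was at 9.95 to 10.20 in ethanol pools and 9.90 to 10.02 in saline pools (0.11, SE 0.050, 95% interval 0.01 to 0.22, adjusted p = 0.178), an interval far below 0.93. Names ending in s_at mark probes that can match more than 1 transcript, so the signal of 1450184_s_at and 1438211_s_at may not be of Tef and Dbp alone.

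The first Tef window (chr15:81802423-81802722, plus strand, GRCm38.p6) is printed because E-boxes are the sites through which CLOCK and ARNTL act, with the E-box letters in capitals at -127 to -122:
Tef: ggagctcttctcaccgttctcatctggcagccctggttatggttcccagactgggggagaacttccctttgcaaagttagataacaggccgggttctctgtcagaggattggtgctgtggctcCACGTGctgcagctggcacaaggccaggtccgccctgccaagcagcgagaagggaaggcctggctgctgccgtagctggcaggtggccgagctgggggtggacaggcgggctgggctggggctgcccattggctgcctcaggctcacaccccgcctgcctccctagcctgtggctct
The second Tef window also held an E-box match, at -138 to -133. In all, 8 of the 10 genes matched RefSeq windows by symbol, 13 windows together, and 4 genes had a match to any of the 4 motifs. The windows of Clock, Nr1d1, Nr1d2 and Dbp held none of these letters, and Per2 and Bhlhe40 were not matched.

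Bhlhe40, which encodes the E-box repressor DEC1, did not pass. Its probe set 1418025_at was at 9.15 to 9.54 in ethanol pools and 9.31 to 9.60 in saline pools (-0.13, SE 0.075, 95% interval -0.30 to 0.03, adjusted p = 0.296, limma). With the 3′–5′ covariate it was at 0.08.

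**Figure D2:**
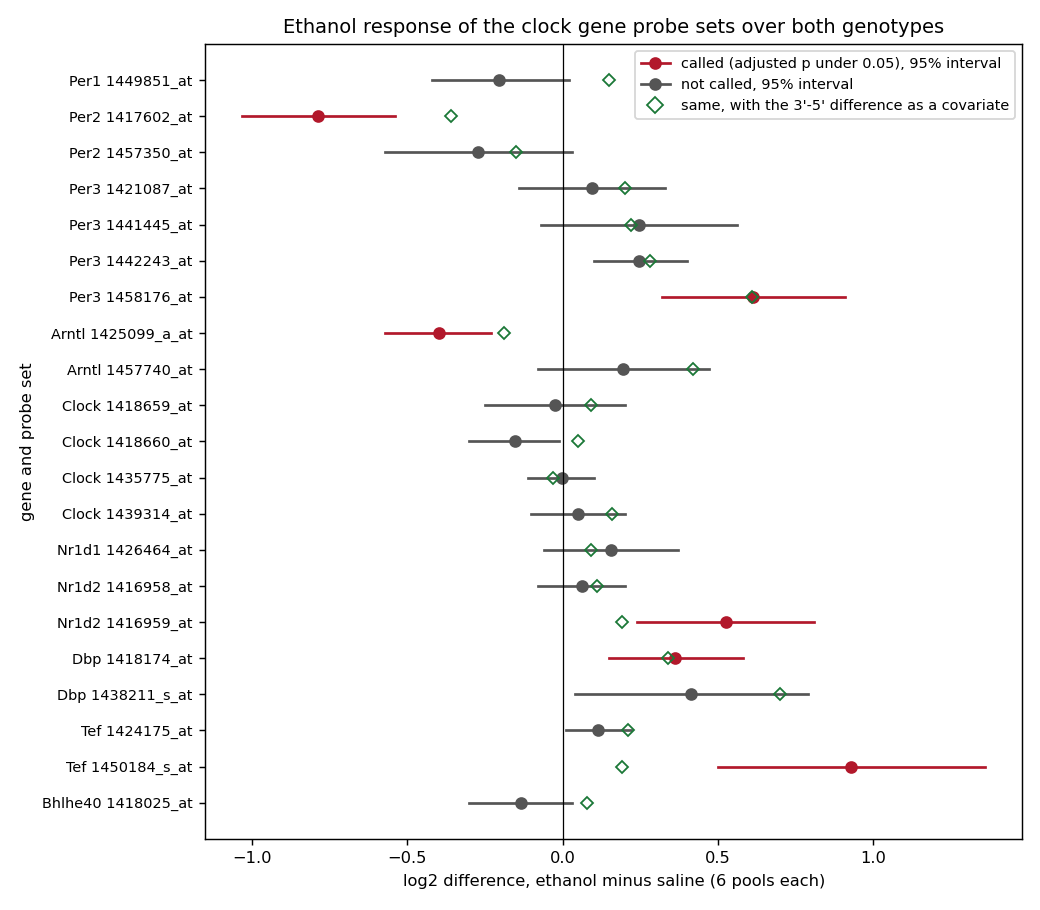
Log2 difference of ethanol minus saline pools (horizontal axis, 6 pools each) for each of the 21 tested probe sets (vertical axis). Points are differences with 95% intervals, red where the probe set was called, and open diamonds are the same difference with the 3′–5′ covariate. The diamonds of Per3 1458176_at (0.61) and Dbp 1418174_at (0.34) lie on their points, and those of Per2 (-0.36), Arntl (-0.19), Nr1d2 (0.19) and Tef (0.19) lie nearer to 0.

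The called probe sets differed in how closely their level followed the 3′–5′ difference. Over the 12 arrays, Pearson's r with the 3′–5′ difference was 0.90 for Per2 1417602_at, 0.89 for Arntl 1425099_a_at, -0.91 for Tef 1450184_s_at and -0.82 for Nr1d2 1416959_at. It was -0.63 for Dbp 1418174_at and -0.57 for Per3 1458176_at. Of the probe sets that were not called, Per1 (0.81), Bhlhe40 (0.78) and Clock 1418660_at (0.76) were highest. The points share treatment, since ethanol pools had the lower 3′–5′ difference, so these values are a description and carry no test. Within the 6 saline pools, control saline replicate 3, with the highest 3′–5′ difference (0.99), had the highest Per2 (7.63) and Arntl (8.59) and the lowest Tef (5.89), and control saline replicate 1, with the lowest (0.54), had the highest Tef (7.29) and Nr1d2 (6.04). The order was not exact. In control saline replicate 1 Per2 was at 7.24, within the range of the other saline pools and not at its low end. Arntl was at 8.27 there, while its lowest saline value was 8.25, in Fyn-null saline replicate 4. Nr1d2 was at 5.37 in control saline replicate 3 and lowest in Fyn-null saline replicate 3 (5.22), whose 3′–5′ difference was also high (0.85). In control saline replicates 3 and 1, Per3 was at 6.98 and 6.87 and Dbp at 7.72 and 7.88, within the range of the other saline pools. What the values of these single pools owe to RNA quality was not tested. The covariate left 0 of the 21 and 27 of all probe sets called. For Per2, Arntl, Nr1d2 and Tef the difference itself was smaller with it. For Per3 and Dbp the difference was close to that without it and the standard error was larger (0.24 against 0.14, and 0.18 against 0.10). Because the covariate went with treatment, neither outcome tells ethanol from RNA quality.

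**Figure D3:**
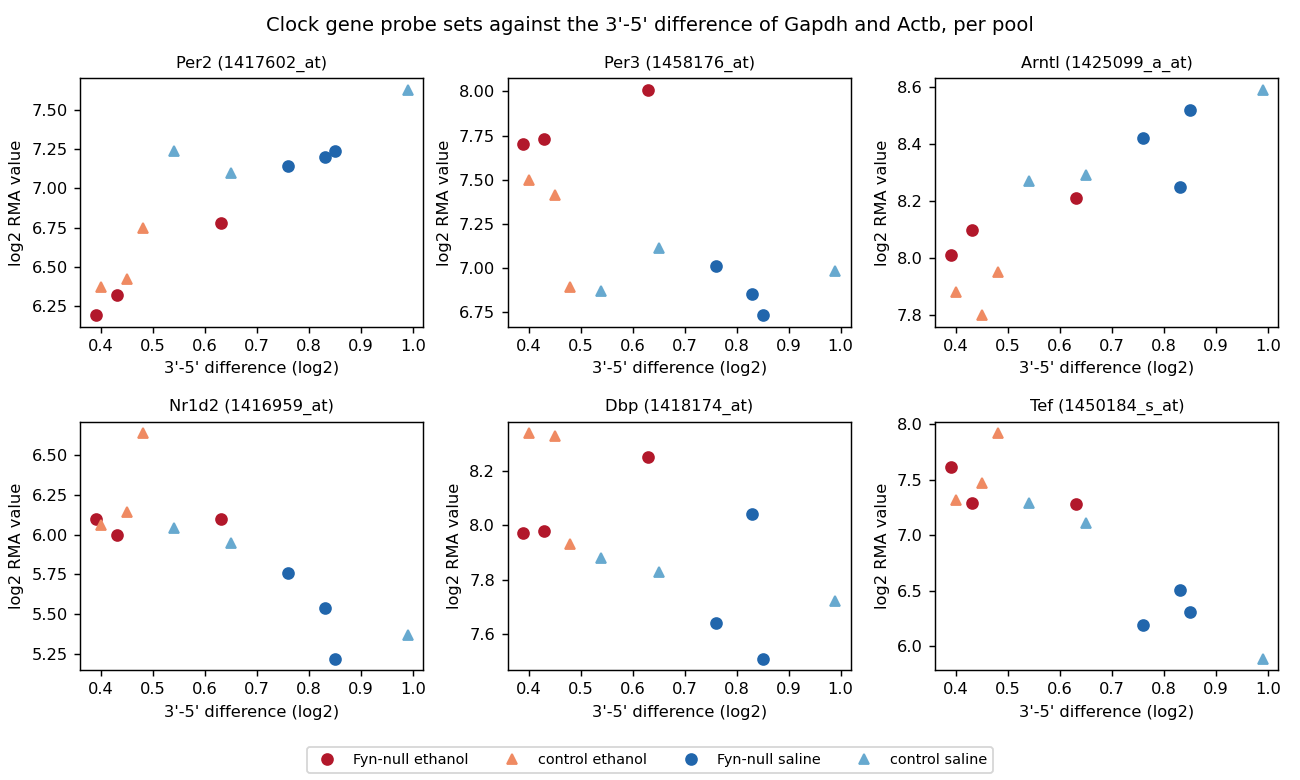
Log2 RMA value (vertical axes, which do not start at 0) of the 6 called probe sets against the mean 3′–5′ difference of the Gapdh and Actb control probe sets (horizontal axes, log2), 1 point per pool. Fyn-null ethanol replicate 1 has the highest 3′–5′ difference of the ethanol pools (0.63). There Per3 is at 8.01 and Dbp at 8.25, above all saline pools, and Per2 is at 6.78. In control ethanol replicate 4, with a 3′–5′ difference of 0.48, Per2 is at 6.75.

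The ethanol response was next set side by side for the genotypes. In Fyn-null mice 1 of the 21 passed, Per3 1458176_at, which rose by 0.95 (SE 0.15, adjusted p = 0.0176, limma, n = 3 pools each), where 0.4% of all probe sets passed (0.254% higher, 0.145% lower, and 0.657% of genes with at least 1 call). In control mice 2 passed, the falls of Per2 and Arntl given above, where 1.43% of all probe sets did (0.509% higher, 0.925% lower, and 2.2% of genes), and without both doubted pools 0 did. Groups did not overlap for 7 of the 21 in Fyn-null mice, 5 higher and 2 lower after ethanol, as for 18.1% of all (8.28% higher and 9.81% lower). In control mice they did not overlap for 6, of which 4 were higher and 2 lower, as for 23% of all (6.77% higher and 16.3% lower). Per3 1458176_at in control mice was at 0.28 (SE 0.15, adjusted p = 0.331), and leaving out 1 pool moved it to between 0.16 (without control ethanol replicate 1) and 0.47 (without control ethanol replicate 4). The difference between these responses was 0.67 (SE 0.21, unadjusted p = 0.00804) and did not pass over all probe sets (adjusted p = 0.992). It was the only one of the 21 with an unadjusted p under 0.05, and no probe set on the array passed (0%), with 1023 (4.13%) at an unadjusted p under 0.05. The Per3 response in Fyn-null mice was 0.94 (adjusted p = 0.0736) without both doubted saline pools and 0.99 (adjusted p = 0.275) with the covariate, and it was lost without any one Fyn-null ethanol pool or without Fyn-null saline replicate 3 or 4, with adjusted p of 0.0614 to 0.0937.

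**Figure D4:**
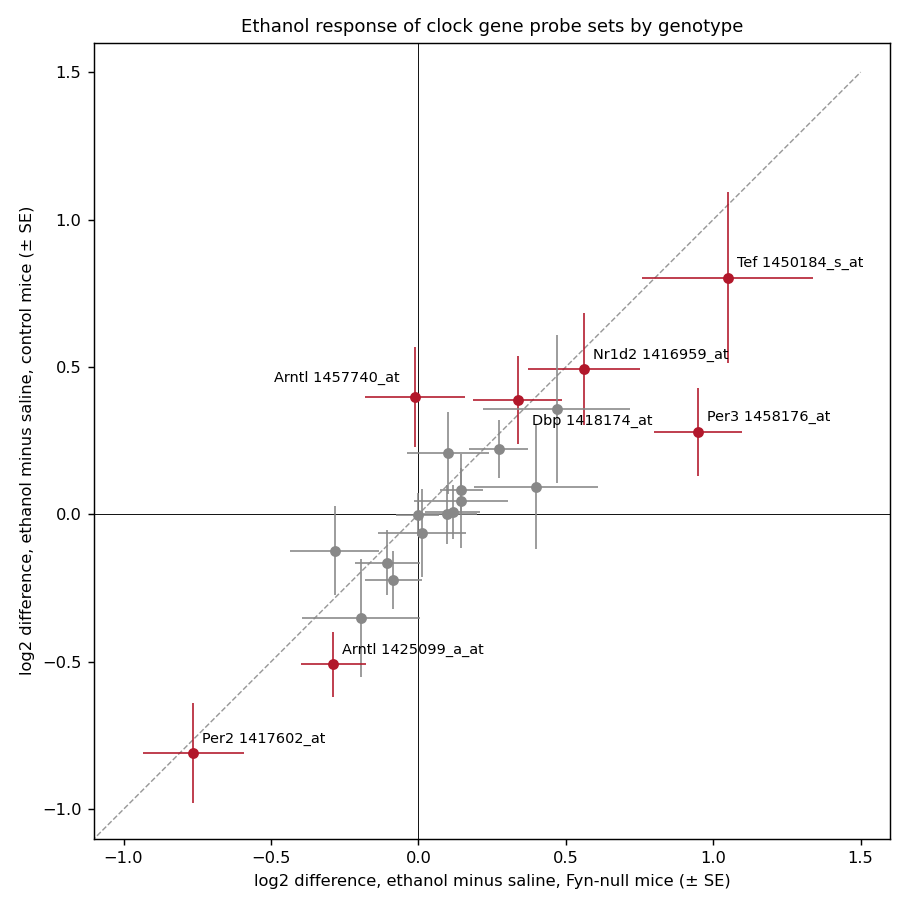
Ethanol response (log2 difference, ethanol minus saline, ± SE, 3 pools each) of the 21 tested probe sets in Fyn-null mice (horizontal axis) and control mice (vertical axis), with the line of equal response dashed. Red points are the 6 called over both genotypes and Arntl 1457740_at. Per3 1458176_at lies right of the line at 0.95 and 0.28, and Arntl 1457740_at lies left of it at -0.01 and 0.40.

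Tef 1450184_s_at was at 1.05 (SE 0.29, adjusted p = 0.182) in Fyn-null mice and Nr1d2 1416959_at at 0.56 (SE 0.19, adjusted p = 0.281). In control mice these were at 0.80 (SE 0.29, adjusted p = 0.171) and 0.49 (SE 0.19, adjusted p = 0.20). Both control values were lowest without control saline replicate 3, at 0.37 and 0.28, and with the covariate they were at 0.12 and 0.18. Without control ethanol replicate 4 Nr1d2 in control mice was at 0.31. Dbp 1418174_at was at 0.34 (SE 0.15) in Fyn-null mice and 0.39 (SE 0.15) in control mice. None of these 3 passed in either genotype with 3 pools a group (limma), and their differences between genotypes were 0.25 (SE 0.41), 0.07 (SE 0.27) and -0.05 (SE 0.21).

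Genotypes were compared at each treatment. The lower cortical neuron markers of Fyn-null pools stand beside these comparisons, and their part in them was not tested. After ethanol 0 of the 21 and 0% of all probe sets passed (limma), with 6 of the 21 and 13.6% of all at an unadjusted p under 0.05. Groups did not overlap for 9 of the 21, as for 20.3% of all: 7 were higher in Fyn-null pools (13.8% of all) and 2 lower (6.51% of all). Per3 1458176_at had the lowest p-value: its Fyn-null ethanol pools, at 7.70 to 8.01, stood above its control ethanol pools, at 6.89 to 7.50 (0.55, SE 0.15, adjusted p = 0.168, n = 3 each). Per3 1441445_at (6.68, 6.84 and 6.88 in Fyn-null pools, 5.80, 6.44 and 6.56 in control pools) and 1442243_at (6.00, 6.19 and 6.38 in Fyn-null pools, 5.92, 5.95 and 5.96 in control pools) also did not overlap, at 0.53 (SE 0.21) and 0.24 (SE 0.10). Neither passed. Arntl was split by probe set. Probe set 1425099_a_at was 0.23 higher in Fyn-null pools (SE 0.11, adjusted p = 0.358). Probe set 1457740_at read 5.23, 5.39 and 5.27 in Fyn-null ethanol pools and 5.89, 5.99 and 5.55 in control ethanol pools, a difference of -0.51 (SE 0.17, adjusted p = 0.211).

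After saline 0 of the 21 and 0% of all probe sets passed, with 0 of the 21 and 467 of all (1.89%) at an unadjusted p under 0.05 (limma). Differences of the 21 ran from -0.43 to 0.22, and groups did not overlap for 1, Per3 1442243_at, which was higher in Fyn-null pools (0.19, SE 0.10), as for 5.16% of all (2.94% higher and 2.22% lower). Each saline group holds 1 of the doubted pools, so this comparison depends on their labels. Without both, 0 of the 21 and 44 of all passed after saline. Per3 1442243_at was then at 0.25 (SE 0.13), and Arntl 1457740_at moved from -0.10 to -0.35 (SE 0.16). Over both treatments 0 of the 21 and 0% of all passed, with 4 of the 21 and 11.1% of all at an unadjusted p under 0.05. Groups overlapped for each of the 21, while 0.307% of all did not overlap (0.186% higher and 0.121% lower). Of these 4, Per3 had 2, 1442243_at (0.22, SE 0.070, adjusted p = 0.336) and 1441445_at (0.38, SE 0.15, adjusted p = 0.384). The others were Clock 1418660_at (0.18, SE 0.068, adjusted p = 0.378) and Arntl 1457740_at (-0.31, SE 0.13, adjusted p = 0.399). Without both doubted pools, Arntl 1457740_at was at -0.45 (SE 0.10, adjusted p = 0.0389) and passed, along with 669 of all probe sets.

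Other genes of the clock were taken from a list of 20. By the probe set of highest mean, 16 were measured, of which 0 rose and 2 fell over both genotypes (1.89% and 4.80% of all genes), with a median of -0.053 beside -0.038 for all genes. Cry1, the partner of the PER proteins in repression, read 6.67, 6.21 and 6.44 in Fyn-null ethanol pools and 6.26, 6.32 and 6.18 in control ethanol pools, against 6.63, 6.74 and 6.65 in Fyn-null saline pools and 6.67, 6.58 and 6.99 in control saline pools. It fell by 0.36 (SE 0.092, adjusted p = 0.0344, limma), with Fyn-null ethanol replicate 1 within the saline range. Nfil3, which encodes the repressor that competes with DBP and TEF at D-boxes, read 5.62, 5.23 and 5.49 in Fyn-null ethanol pools and 5.39, 5.39 and 5.63 in control ethanol pools. In Fyn-null saline pools it read 5.95, 6.34 and 5.94, and in control saline pools 5.70, 5.76 and 6.07. No pool overlapped, and it fell by 0.50 (SE 0.10, adjusted p = 0.014). Calls from this list, here and below, are given neither without both doubted saline pools nor with the 3′–5′ covariate. With that covariate only 27 of all probe sets passed. Cry2 was at -0.12 (SE 0.067), Npas2, which can stand in for Clock, at -0.11 (SE 0.12), and Hlf, the third D-box activator of this family, at 0.31 (SE 0.12, adjusted p = 0.135), and none passed.

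Over all 43 measured probe sets of that list 3 rose and 3 fell, where 2.58% and 4.22% of all probe sets did. The rises were in probe sets that did not have the highest mean of their gene, of Rora (1458129_at, 0.62, SE 0.17, adjusted p = 0.0444), Csnk1d (1418889_a_at, 0.37, SE 0.097, adjusted p = 0.0386) and Fbxw11 (1425461_at, 0.70, SE 0.19, adjusted p = 0.0426). The highest-mean probe sets of these genes were at 0.08, 0.06 and -0.04. Rora encodes an activator at ROREs, Csnk1d a kinase of the PER proteins and Fbxw11 a subunit of a ubiquitin ligase that targets them. The third fall was in Gsk3b 1434439_at (-0.29, SE 0.066, adjusted p = 0.0213), whose highest-mean probe set was at 0.02. In the comparisons of genotypes and in each genotype alone 0 of these 43 passed.

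The genes whose levels over the 12 arrays were most like those of a called clock gene, taken where the called probe set had the highest mean of its gene, were found among 12322 others by Pearson's r. For Per2 1417602_at they were Man1a (0.974), Exph5 (0.972) and Numb (0.965). For Per3 1458176_at they were Ankrd35 (0.926), Ifitm10 (0.921) and Tk2 (0.917), and for Arntl 1425099_a_at Zfp407 (0.987), Taf3 (0.978) and Smc2 (0.968). These arrays share the treatment and the 3′–5′ difference, so the values carry no test.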

How the data were processed

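Expression was measured in 12 pools of prefrontal cortex RNA, 1 array each. The deposited values are log2 expression per probe set, which the authors made with RMA in affy, going by their processing notes. The sources used here give no version of either tool, and whether the batch step of the Methods reached these values is not stated. The study's S-scores need probe intensities and were not computed.

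After removal of 64 control probe sets, the dimmest 45% by mean over the arrays (below 5.15) were dropped, leaving 24770. Each was fitted in R 4.3.3 with limma 3.58.1 (lmFit, eBayes). Treatment and genotype as additive terms gave differences over both genotypes or treatments, and 4 group means the rest. P-values were adjusted by Benjamini-Hochberg over all 24770, with calls made at an adjusted p under 0.05. The fits were tested on simulated data. Pool measures were compared by two-sided exact permutation tests. Genes were named by platform annotation (34958 probe sets with 1 symbol, 932 with several, 9211 with none). Promoter windows came from RefSeq by symbol. Named genes were all members, called genes of the other clock list and, for called members, the 3 most correlated genes. Other clock genes with values, and glucocorticoid-induced examples, were chosen after their values were seen. Members, lists and tests were chosen with earlier results of these data known.

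Arrays count no reads, and their number limits the precision. Standard errors had a median of 0.11 with 3 pools a side and 0.076 with 6. Alternatives were other filters, further quantile normalization, a replicate block, eBayes with trend and robust, arrayWeights, only the groups compared, leaving out each array, and gene means. A fit without both doubted saline pools and one with the 3′–5′ covariate were added after the data were seen. Replicate numbers were not treated as pairs.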

Additional observations from a re-analysis of the deposited data

Results flagged for a closer look

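Tef had a probe set under the filter on low signal, 1438033_at, with 1 pool far above the rest. Fyn-null ethanol pools were at 4.54, 4.68 and 4.47, and control ethanol replicate 1 was at 6.05, beside 4.83 for replicate 2 and 4.26 for replicate 4. Saline pools were between 4.22 and 4.54. The value stands out because the main comparisons left this probe set out and 1 pool exceeded every saline pool by more than the whole range of the saline pools. In the same pool the other Tef probe sets were at 7.32 (1450184_s_at) and 9.95 (1424175_at), the second being the lowest of the ethanol pools.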

How the results depend on the processing

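The falls of Per2 1417602_at (-0.87 to -0.36) and Arntl 1425099_a_at (-0.46 to -0.19) over both genotypes passed in 20 of 21 alternatives each, the rise of Per3 1458176_at (0.53 to 0.73) in 19 of 21 and that of Tef 1450184_s_at (0.19 to 1.06) in 18 of 21. Nr1d2 1416959_at passed in 11 of 20 and Dbp 1418174_at in 7 of 21. All kept their direction. By gene means 4 of the 6 called genes passed, and the share of all genes in that fit is not given. With the 3′–5′ covariate 0 of the 21 and 27 of all probe sets passed over both genotypes, 0 and 15 in Fyn-null mice, and 0 and 16 in control mice. Without both doubted saline pools 0 and 54 passed in Fyn-null mice, 0 and 147 in control mice, 260 of all after ethanol, 44 of all after saline, and 1 and 669 over both treatments. The cause of these shifts was not tested.

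No clear pairing of pools by replicate number was seen: residuals of same-numbered arrays correlated at -0.43 to 0.32 (3 of 13 pairs over 0.1), and 2 of 12 arrays were closest to one of the same number. With 12 arrays and numbers that differ between groups, these values cannot exclude pairing. With the replicate number as a block, 3 of the 21 (Per2, Per3 and Arntl) and 710 of all passed over both genotypes, 0 and 26 in Fyn-null mice, and 0 and 36 in control mice. The arrayWeights estimate stopped before it converged, and with it 7 and 2781 passed in Fyn-null mice, 3 and 3975 between genotypes after ethanol, and 6 of all over both treatments. Further quantile normalization gave 2 and 155 in Fyn-null mice and 2 of all between genotypes over both treatments, where the filter of 60% gave 1. Fits of only the groups compared gave 2 of the 21 and 82 of all in Fyn-null mice, 0 and 18 in control mice, and 193 of all after ethanol. With trend and robust, 1 of all passed after ethanol. Without a filter, 1 of the 21 and 278 of all passed in control mice. Gene means gave 0 genes in Fyn-null mice and 1 in control mice, with no share of all genes given.

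Leaving out each array gave 2 to 6 of the 21 and 770 to 1625 of all over both genotypes, the lowest of both without Fyn-null ethanol replicate 2. It gave 0 to 3 and 33 to 145 in Fyn-null mice and 0 to 2 and 76 to 410 in control mice. Between genotypes it gave 0 to 35 of all after ethanol and 0 to 129 over both treatments, the highest of each without control saline replicate 2.

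Signs turned only where the difference was small or the covariate was added. The covariate gave 0.15 for Per1, 0.05 for Clock 1418660_at, 0.09 for Clock 1418659_at and 0.08 for Bhlhe40. Clock 1418659_at was at 0.01 after quantile normalization and -0.09 to 0.01 without each array, and Clock 1435775_at was at 0.03 after it, 0.02 without both doubted pools and -0.02 to 0.01 without each array. The interaction of Per3 1442243_at (0.05) was at -0.17 with arrayWeights, -0.01 without both doubted pools and -0.04 without Fyn-null ethanol replicate 2. Between genotypes after saline, Arntl 1457740_at (-0.10) was at -0.29 to 0.09 without each array, above 0 only without control saline replicate 3.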
